A study of Xenopus tropicalis with 20 samples.

Results

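Livers of western clawed frogs (Xenopus tropicalis) were compared between consecutive generations of the control line, second-generation (F2) against first-generation (F1) females. The comparison used every library labelled as an F1 or F2 control, 5 per generation, which made 10 of the 20 libraries in the study. The study asked how livers of daughters and granddaughters respond when only the founders (F0) met a mixture of benzo[a]pyrene and triclosan, present at 50 ng/L while those founders grew from tadpoles into mature adults. The former compound is a combustion product and the latter a disinfectant. The other 10 libraries were F1 and F2 females of that mixture line, and neither generation was itself exposed. The labels give no genotype, strain, age, clutch, housing, sampling time, sequencing date or run for any frog, and do not say what the F0 ancestors of the controls received. Generation therefore cannot be told apart from any of these. The study's design text adds that control sequence data came from a separate deposit, so a difference between the control and mixture lines cannot be told apart from a difference between deposits. Each biological replicate was 15 mg of liver from a mature female, read as 75 bp reads. The labels do not say whether these replicates were separate animals or sisters, so p-values measure the spread between these samples only.

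The liver of a mature female frog makes most plasma proteins, exports lipid in lipoproteins, stores and releases glucose, and makes the egg yolk precursor vitellogenin under control of estrogen. It is also the main source of circulating insulin-like growth factor 1, made in response to growth hormone, and much of this work follows feeding and a daily clock. Frog liver is rich in blood, and frog red blood cells keep a nucleus and RNA, so a liver library also holds transcripts of red blood cells, immune cells and vessel walls.

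Values are FPKM (a fragment count normalised for the length of the transcript and the size of the library) divided by a median-of-ratios factor per library and called scaled FPKM below. The deposited limits correspond to 7896246 to 12057469 fragments in the F1 controls and 10601298 to 14079161 in the F2 controls, so depth leaned towards F2. Genes were tested where the mean FPKM over all 20 libraries was 1 or more. Rank correlations between libraries ran from 0.953 to 0.971 within a generation and from 0.907 to 0.939 across generations. The first principal component held 43.1% of the variance and separated the F1 controls, at -56.0 to -17.2, from the F2 controls, at 46.8 to 64.8. F1 control 3 was the F1 library nearest to the F2 controls. It was also the F1 library closest to the F2 side in 2991 of 5715 genes that differed and were sound in all 10 libraries (52.3%), against 417 to 1028 genes for each of the other F1 libraries.

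**Figure D1:**
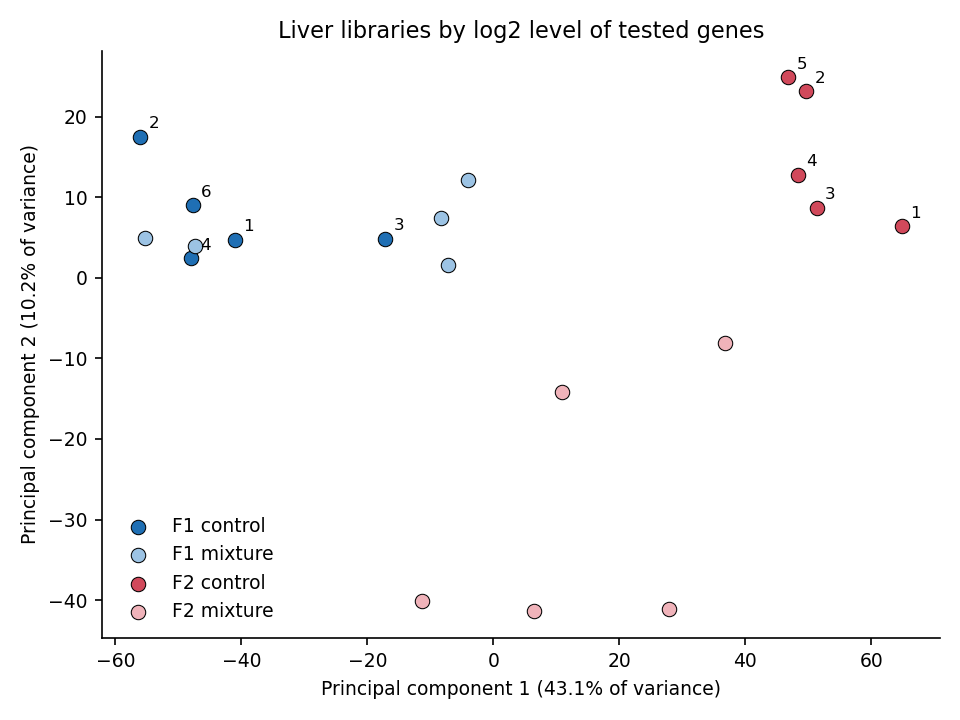
Scores of all 20 libraries on the first 2 principal components of log2(scaled FPKM + 1) over 10193 genes, coloured by group, with the number of each control library beside its point. The F2 controls lie together at 46.8 to 64.8 on the first component and the F1 controls at -56.0 to -17.2, with F1 control 3 at the right end of its group.

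Most of the measured liver transcripts differed between the control generations. Of 10228 genes tested with limma, 5722 passed an adjusted p of 0.05 (55.9%), 2804 higher (27.4%) and 2918 lower (28.5%) in F2. A total of 2738 (26.8%) also differed by over 2-fold, 1373 higher and 1365 lower. In 4270 genes (41.7%) the 5 F1 and 5 F2 libraries did not overlap. The median log2 fold change over all tested genes was -0.03. Without the scaling factors that median moved to -0.22 and the split became 1983 higher and 3479 lower, so that 36.3% rather than 49.0% of the called genes were higher. The shares of 27.4% and 28.5% are the background for the gene groups described here. Levels are given as mean ± SD over 5 libraries. Brackets give the log2 fold change of F2 over F1 ± SE, and every gene said to rise or fall passed limma's test after Benjamini-Hochberg adjustment, with the adjusted p printed for the main examples.

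The largest increases were described among characterised genes with a mean of 5 scaled FPKM or more in the higher generation. They had values above 0 in both generations and no overlap between the F1 and F2 libraries. That the generations did not overlap in these leading genes was therefore set by the choice. With 1 leading increase not reported here, the 3 largest of the others were those of scd, crem and tmem97. The first of them, scd (chromosome 7, 42442917 to 42465833), is the desaturase that makes monounsaturated fatty acids. F1 control libraries 1, 2, 3, 4 and 6 held 0.71, 1.81, 7.08, 2.92 and 2.48 scaled FPKM and F2 control libraries 1 to 5 held 182, 11.3, 46.9, 195 and 47.4. Every F2 library was above every F1 library, although F2 control 2 lay close to the highest F1 library, F1 control 3 (4.18 ± 0.83, adjusted p = 0.000331). Next was crem, a transcription factor of cyclic AMP signalling. In library order (F1 1, 2, 3, 4, 6 and F2 1 to 5) its scaled FPKM was 1.0, 0.676, 2.22, 8.31 and 1.85 in F1 and 163, 44.0, 78.0, 64.0 and 11.1 in F2. All F2 values were higher, with F2 control 5 the lowest of them and F1 control 4 the highest of the F1 libraries (4.12 ± 0.61, adjusted p = 2.09e-05). The third was tmem97, the sigma-2 receptor, which takes part in cholesterol handling in mammals. Scaled FPKM of tmem97 was 2.63, 2.74, 4.32, 1.44 and 1.3 in the F1 controls 1, 2, 3, 4 and 6, and 45.9, 39.1, 70.6, 49.3 and 76.0 in the F2 controls 1 to 5. The lowest F2 library was well above the highest F1 library (4.06 ± 0.36, adjusted p = 3.29e-07).

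Secreted and cell-surface products followed. Angiotensinogen, agt (chromosome 5, 52719556 to 52741680), is the plasma precursor of the blood-pressure hormone angiotensin. Across the F1 controls 1, 2, 3, 4 and 6 it stood at 7.70, 5.42, 20.6, 8.37 and 4.45 scaled FPKM, and across the F2 controls 1 to 5 at 216, 84.3, 171, 144 and 128. The generations did not overlap, with F1 control 3 the highest of the F1 libraries (3.98 ± 0.63, adjusted p = 4.05e-05). The heparan sulfate proteoglycan syndecan 4, sdc4, rose from 2.84 ± 1.11 to 58.7 ± 19.0 scaled FPKM (3.96 ± 0.43, adjusted p = 1.65e-06). An inhibin beta C copy, inhbc.2, a liver-made subunit of the activin family, rose from 2.44 ± 1.12 to 40.8 ± 10.2 (3.65 ± 0.34, adjusted p = 3.92e-07). The membrane protein itm2a rose from 16.4 ± 3.60 to 196 ± 37.8 with a narrow spread in both generations (3.50 ± 0.41, adjusted p = 2.71e-06). Riboflavin kinase, rfk, the first step in making the flavin cofactors FMN and FAD, rose from 0.808 ± 0.37 to 21.3 ± 18.4 (3.32 ± 0.36, adjusted p = 1.65e-06). The mRNA-destabilising protein zfp36, an early-response gene, rose from 13.7 ± 11.8 to 152 ± 119 (3.34 ± 0.65, adjusted p = 0.000295). The zinc-finger protein gene thap4 was listed at 0 in F1 control libraries 1, 2, 4 and 6 and at 7.18 in F1 control 3, against 10.5 to 21.5 in F2. Since a value of 0 can be a failed estimate in these tables, its fold change is uncertain. The leading gene rpl7 encodes a ribosomal protein and is described with that group.

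The decreases were chosen likewise, leaving out genes at 0 in a whole generation, which are given at the end. The largest fall among them belonged to g0s2 (chromosome 2, 50712605 to 50714186), an inhibitor of the fat-cell and liver triglyceride lipase. Its level was 577, 696, 1104, 235 and 725 scaled FPKM in F1 control libraries 1, 2, 3, 4 and 6 and 27.6, 11.1, 106, 33.4 and 94.6 in F2 control libraries 1 to 5. All F1 libraries were above all F2 libraries (-3.85 ± 0.56, adjusted p = 1.75e-05). Glucokinase regulatory protein, gckr, which holds the liver glucokinase in the nucleus in mammals, fell as well. F1 control libraries 1, 2, 3, 4 and 6 held 306, 468, 169, 234 and 382 scaled FPKM and F2 control libraries 1 to 5 held 17.4, 40.2, 52.3, 31.8 and 48.3. F1 control 3 was the lowest F1 library and still over 3 times the highest F2 library (-3.01 ± 0.46, adjusted p = 2.91e-05). The U1 small nuclear ribonucleoprotein gene snrnp70, part of the particle that recognises the start of introns, was among the most abundant genes that fell. In library order (F1 1, 2, 3, 4, 6 and F2 1 to 5) its scaled FPKM was 798, 668, 385, 699 and 785 in F1 and 64.4, 83.0, 103, 105 and 72.9 in F2. The generations were far apart relative to their spread (-2.93 ± 0.37, adjusted p = 5.78e-06).

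Pancreatic-type amylase, amy2a, fell from 244 ± 104 to 27.5 ± 11 (-3.10 ± 0.65, adjusted p = 0.000502). The F2 libraries 1 and 2 were the lowest. Other leading genes that fell were tmem102 (-3.64 ± 0.41), the cation channel trpm1 (-3.24 ± 0.33) and lime1, known in mammals as a lymphocyte adaptor (-2.94 ± 0.24). The same held for the PBX-interacting protein pbxip1 (-3.07 ± 0.43), the syntenin relative sdcbp2 (-3.07 ± 0.60) and slco1c1, a thyroid hormone and organic anion transporter (-3.02 ± 0.51). The unconventional myosin gene myo3b had 2 levels within F2. Scaled FPKM of myo3b was 40.7, 67.1, 41.0, 69.6 and 60.5 in the F1 controls 1, 2, 3, 4 and 6, and 22.9, 0.106, 19.8, 0.0981 and 14.9 in the F2 controls 1 to 5. F2 controls 2 and 4 were near 0 and the other F2 libraries lay between them and the F1 range (-3.14 ± 0.96, adjusted p = 0.00891). The homeobox gene sebox showed the same 2 low libraries, at 0.163 and 0.191 in F2 controls 2 and 4 against 3.27 to 11.8 in the others (-3.18 ± 0.89, adjusted p = 0.00506). With the erythrocyte marker level as a covariate both calls were lost (adjusted p = 0.135 for myo3b and 0.215 for sebox).

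**Figure D2:**
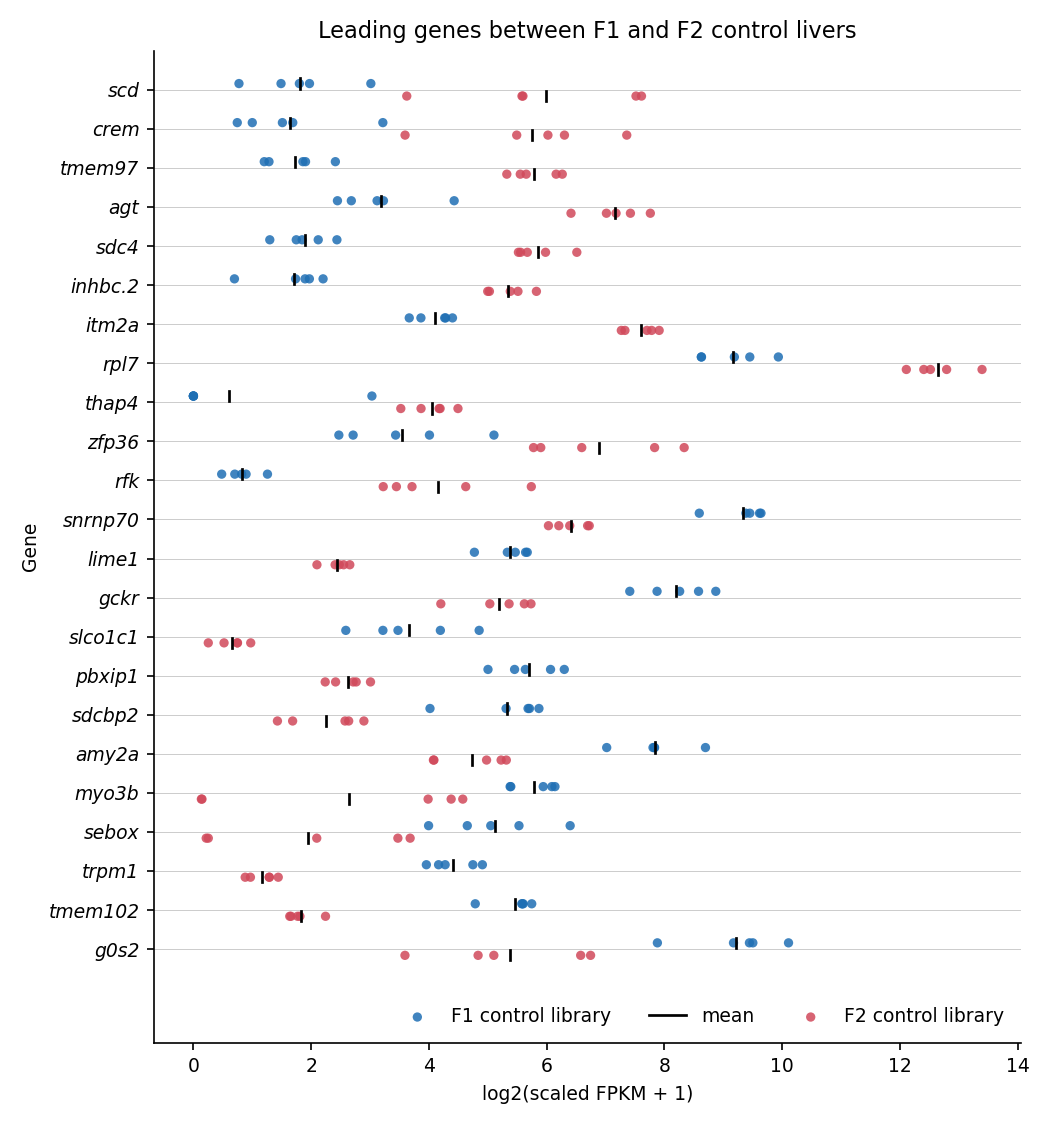
Level of the 23 leading genes, 11 higher and 12 lower in F2, in each control library as log2(scaled FPKM + 1), with the mean of each generation as a black bar. The genes were chosen to have no overlap between generations. Within F2 myo3b and sebox fall into separate levels, and thap4 is at 0 in 4 F1 libraries.

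Ribosomal protein genes of the cytosolic ribosome, the machine that translates nuclear mRNA, were higher in F2: 59 of 76 measured genes rose and 0 fell, with a median log2 fold change of 1.53. The large-subunit gene rpl7 stood out. Across the F1 controls 1, 2, 3, 4 and 6 it stood at 699, 395, 979, 396 and 583 scaled FPKM, and across the F2 controls 1 to 5 at 10789, 5434, 5874, 4423 and 7109.9. The lowest F2 library was over 4 times the highest F1 library (3.48 ± 0.47, adjusted p = 8.88e-06). The small-subunit gene rpsa rose from 778 ± 308 to 4560.3 ± 1490.5 (2.58 ± 0.37) and rpl3 from 621 ± 171 to 2814 ± 951 (2.15 ± 0.32). The size depends on the scaling: with quantile normalization 36 rose and 18 fell, with a median of 0.27, and without scaling 54 rose and 0 fell, with a median of 1.28. With the erythrocyte marker level as a covariate 35 rose and 0 fell.

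Mitochondrial energy genes also leaned towards F2. Of 75 genes of the respiratory chain and ATP synthase, which make ATP from oxygen, 39 rose and 4 fell (median 0.70). The complex III core gene uqcrc2 gave a clean example. Its level was 5.52, 4.67, 7.26, 4.46 and 5.13 scaled FPKM in F1 control libraries 1, 2, 3, 4 and 6 and 34.4, 25, 26.7, 20.6 and 27.7 in F2 control libraries 1 to 5. The generations were separated by a gap larger than the range of the F1 libraries (2.12 ± 0.23, adjusted p = 1.27e-06). The complex IV genes cox5a (2.59 ± 0.39) and cox7a2l, a factor in assembling chain complexes (2.26 ± 0.32), and the ATP synthase subunit atp5f1b (1.88 ± 0.29) rose too. With the erythrocyte covariate the count fell to 18 higher and 3 lower, and 2 were lower without F1 control 1 or 3 or without F2 control 2, 4 or 5.

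In the tricarboxylic acid cycle, which feeds electrons to that chain, 16 of 28 genes rose and 2 fell (median 0.69). Mitochondrial isocitrate dehydrogenase, idh2 (chromosome 3, 108438260 to 108448769), had the largest rise there. F1 control libraries 1, 2, 3, 4 and 6 held 222, 62.6, 268, 125 and 114 scaled FPKM and F2 control libraries 1 to 5 held 889, 830.3, 859.8, 695 and 896. F1 libraries differed among themselves by over 4-fold, whereas F2 libraries lay close together (2.56 ± 0.38, adjusted p = 2.00e-05). Malate dehydrogenase mdh2 (2.43 ± 0.36) and the succinyl-CoA ligase subunits suclg2 (1.56 ± 0.20) and sucla2 (1.46 ± 0.18) also rose. Genes of mitochondrial fatty acid oxidation and ketone body production were higher in 17 and lower in 5 of 43 (median 0.28). Both hadha, of the trifunctional enzyme (1.78 ± 0.28), and hadh, the short-chain dehydrogenase (1.78 ± 0.28), rose, as did the acyl-CoA dehydrogenase acadl (1.21 ± 0.19). Of 76 mitochondrial ribosomal protein genes, 29 rose and 5 fell, with mrps30 rising from 2.23 ± 0.727 to 13.2 ± 5.59 (2.08 ± 0.28) and mrpl34 falling from 37.4 ± 9.27 to 14.1 ± 2.75 (-1.33 ± 0.19). That split was 19 higher and 14 lower without scaling, and 14 higher and 7 lower with the erythrocyte covariate. Lower counts of the fatty acid list became 8 without scaling and 1 with the covariate.

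Protein folding and secretion genes were higher in F2. Of 61 genes of entry into the endoplasmic reticulum and its unfolded protein response, 31 rose and 4 fell (median 0.86). Among them were the signal peptidase subunit spcs2 (2.28 ± 0.34), the translocon partner sec63 (1.25 ± 0.17), the ubiquitin ligase syvn1 (1.26 ± 0.19) and the initiation factor subunit eif2s1, the target of the stress kinases (1.48 ± 0.20). Heat shock proteins and their co-chaperones, which hold and refold proteins, rose in 16 and fell in 3 of 27 (median 1.14). The co-chaperone dnaja2 rose from 40.9 ± 8.24 to 171 ± 40.7 (2.03 ± 0.25, adjusted p = 3.89e-06), with dnajb1, dnaja1 and hspa4 beside it at 1.71, 1.35 and 1.42. Proteasome genes split more: 17 of 42 rose and 6 fell, with psmd5, an assembly factor of the regulatory particle, at 2.36 ± 0.22 and psme1, an activator linked to immune responses, at -1.46 ± 0.19. With the erythrocyte covariate the split turned to 5 higher and 7 lower, with a median of 0.04, and without F1 control 3 or F2 control 4 only 3 proteasome genes fell. In the endoplasmic reticulum list 17 rose and 1 fell with the covariate, and 25 rose and 10 fell without scaling.

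Among lists of secreted liver products, lipid export had the highest share of genes that rose. Of 27 apolipoprotein and lipid export genes, 14 rose and 0 fell (median 1.11). Microsomal triglyceride transfer protein, mttp.1, which loads lipid onto apolipoprotein B, is a central member. In library order (F1 1, 2, 3, 4, 6 and F2 1 to 5) its scaled FPKM was 6.80, 5.30, 4.22, 5.04 and 5.09 in F1 and 16.5, 19.3, 19.4, 11.9 and 22.9 in F2. No F1 library reached the lowest F2 library (1.58 ± 0.17, adjusted p = 1.70e-06). Apolipoprotein B, apob (1.36 ± 0.37), the lipase activator apoc2 (1.92 ± 0.41) and apof (1.63 ± 0.34) were higher as well.

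Coagulation genes were divided, with 9 of 27 higher and 4 lower. This split was 8 and 7 with quantile normalization and 12 and 0 with the erythrocyte covariate. Heparin cofactor II, serpind1, rose from 56.7 ± 23.1 to 286 ± 39.1 (2.39 ± 0.37), and serpina10 (1.74 ± 0.27), the carboxylase ggcx that prepares vitamin K-dependent factors (1.37 ± 0.23) and the fibrinogen chain fga (1.56 ± 0.34) rose with it. Of 29 secreted liver proteins 10 rose and 1 fell, a split that became 7 and 5 with quantile normalization. Transferrin, tf, the plasma iron carrier, rose from 1305 ± 513 to 4305 ± 797 (1.78 ± 0.34), and the vitamin D-binding protein gc from 56.5 ± 12.2 to 202 ± 60.8 (1.80 ± 0.33). The call of tf was lost with quantile normalization (adjusted p = 0.224). In the complement list 3 of 27 rose and 4 fell, against 2 and 8 with quantile normalization, 2 and 7 without scaling, 2 and 1 with the replicate block and 5 and 2 with the erythrocyte covariate. The membrane inhibitor cd59 (2.29 ± 0.45) and c8b (1.46 ± 0.34) were higher, while clusterin, clu (-1.55 ± 0.37), and the protease c1s (-1.42 ± 0.45) were lower. The call of c1s was lost with the erythrocyte covariate (adjusted p = 0.315) and with the replicate block (0.0815), and the 4 lower calls became 2 without F1 control 2 or 6 or F2 control 2, 3 or 5.

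Genes of the growth hormone and insulin axis were called about as often as genes in general, and the growth factor itself was among those that rose. Insulin-like growth factor 1, igf1 (chromosome 3, 49174280 to 49237834), was low in F1. Scaled FPKM of igf1 was 0.984, 1.0, 1.67, 1.45 and 1.12 in the F1 controls 1, 2, 3, 4 and 6, and 5.96, 23.9, 8.10, 4.98 and 43.1 in the F2 controls 1 to 5. F2 controls 2 and 5 were well above the other F2 libraries, and all F2 libraries exceeded all F1 libraries (2.58 ± 0.39, adjusted p = 3.00e-05). The growth hormone receptor, ghr, rose from 0.491 ± 0.0896 to 3.31 ± 1.32 (1.49 ± 0.26, adjusted p = 0.000101). Over the insulin and IGF signalling list 14 of 36 rose and 6 fell (median 0.51), and 16 did not pass. Without scaling 9 rose and 6 fell. The phosphatase pten (1.11 ± 0.14), which opposes insulin signalling, and the kinase pdpk1 (1.17 ± 0.17), which transmits it, both rose. The nutrient sensor sestrin 3, sesn3, fell from 17.3 ± 4.11 to 3.38 ± 0.608 (-2.05 ± 0.27, adjusted p = 8.52e-06). The insulin receptor substrate irs2 rose slightly (0.67 ± 0.20, adjusted p = 0.00808), a call that was lost without scaling (adjusted p = 0.0875), with the replicate block (0.0651) and with the erythrocyte covariate (0.0608). The IGF-binding protein igfbp1 varied within both generations, at 2.61 ± 4.40 scaled FPKM in F1 and 11.7 ± 11 in F2, and did not pass the test (1.84 ± 0.94, adjusted p = 0.102). Apelin, apln, a circulating peptide hormone, rose from 2.70 ± 1.23 to 20.4 ± 8.17 (2.52 ± 0.30, adjusted p = 3.22e-06).

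Among 18 genes of glucose release 9 rose and 1 fell (median 0.83). The glucose transporter slc2a2 (GLUT2), which carries glucose across the hepatocyte membrane, rose strongly and unevenly. Across the F1 controls 1, 2, 3, 4 and 6 it stood at 9.56, 12.6, 14.0, 25.1 and 18.2 scaled FPKM, and across the F2 controls 1 to 5 at 161, 67.6, 116, 206 and 29.1. F2 control 5 was the lowest F2 library and only just above F1 control 4 (2.58 ± 0.60, adjusted p = 0.00125). The pyruvate carboxylase copy pc.2 (1.22 ± 0.23) and the mitochondrial PEP carboxykinase pck2 (1.05 ± 0.30) rose, the latter not with the replicate block (adjusted p = 0.0669). Without F1 control 2, or without F2 control 1 or 4, 5 of the list rose. Glycolysis and glycogen genes were higher in 11 and lower in 7 of 34 (32.4% and 20.6%), and in 7 and 7 without scaling: pgam1 rose (1.82 ± 0.23), and pkm (-1.57 ± 0.27) and eno3 (-1.21 ± 0.17) fell with gckr.

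Fatty acid and triglyceride synthesis was divided likewise, with 8 of 30 higher and 7 lower (26.7% and 23.3%), and turned to 7 and 11 without scaling. Both shares were under those over all tested genes. Beside scd, agpat3, an acyltransferase of phospholipid synthesis (1.57 ± 0.22), and elovl1, an elongase of very long chains (1.06 ± 0.19), rose, while the acetyl-CoA carboxylase acacb fell (-1.38 ± 0.22). Of 30 genes of cholesterol synthesis and uptake, 1 rose (tmem97) and 6 fell (3.33% and 20%). Both shares were under the 27.4% and 28.5% over all tested genes, and 23 were not called. The lower count was 9 without scaling, 12 with the replicate block and 2 with the erythrocyte covariate. The squalene synthase fdft1 (-1.34 ± 0.36), the sterol esterifying enzyme soat2 (-1.27 ± 0.36) and the sterol sensor partner scap (-1.27 ± 0.36) fell, the latter pair not with the erythrocyte covariate (adjusted p = 0.166 and 0.156). In bile acid synthesis and export 8 of 19 fell and 2 rose, with a median of -0.04, and 5 fell without F1 control 4. With the erythrocyte covariate 2 fell and 2 rose, with a median of 0.45. The rise of cyp8b1.1, the sterol 12-alpha-hydroxylase that sets the kind of bile acid, was large and variable. Its level was 0.331, 2.64, 4.74, 0.219 and 1.98 scaled FPKM in F1 control libraries 1, 2, 3, 4 and 6 and 4.04, 20.9, 13.3, 50.0 and 25.7 in F2 control libraries 1 to 5. F2 control 1 lay below F1 control 3, so the generations overlapped (2.88 ± 0.57, adjusted p = 0.000319). The cholesterol 24-hydroxylase copies cyp46a1.2 (-2.24 ± 0.44) and cyp46a1.3 (-1.18 ± 0.27) fell.

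**Figure D3:**
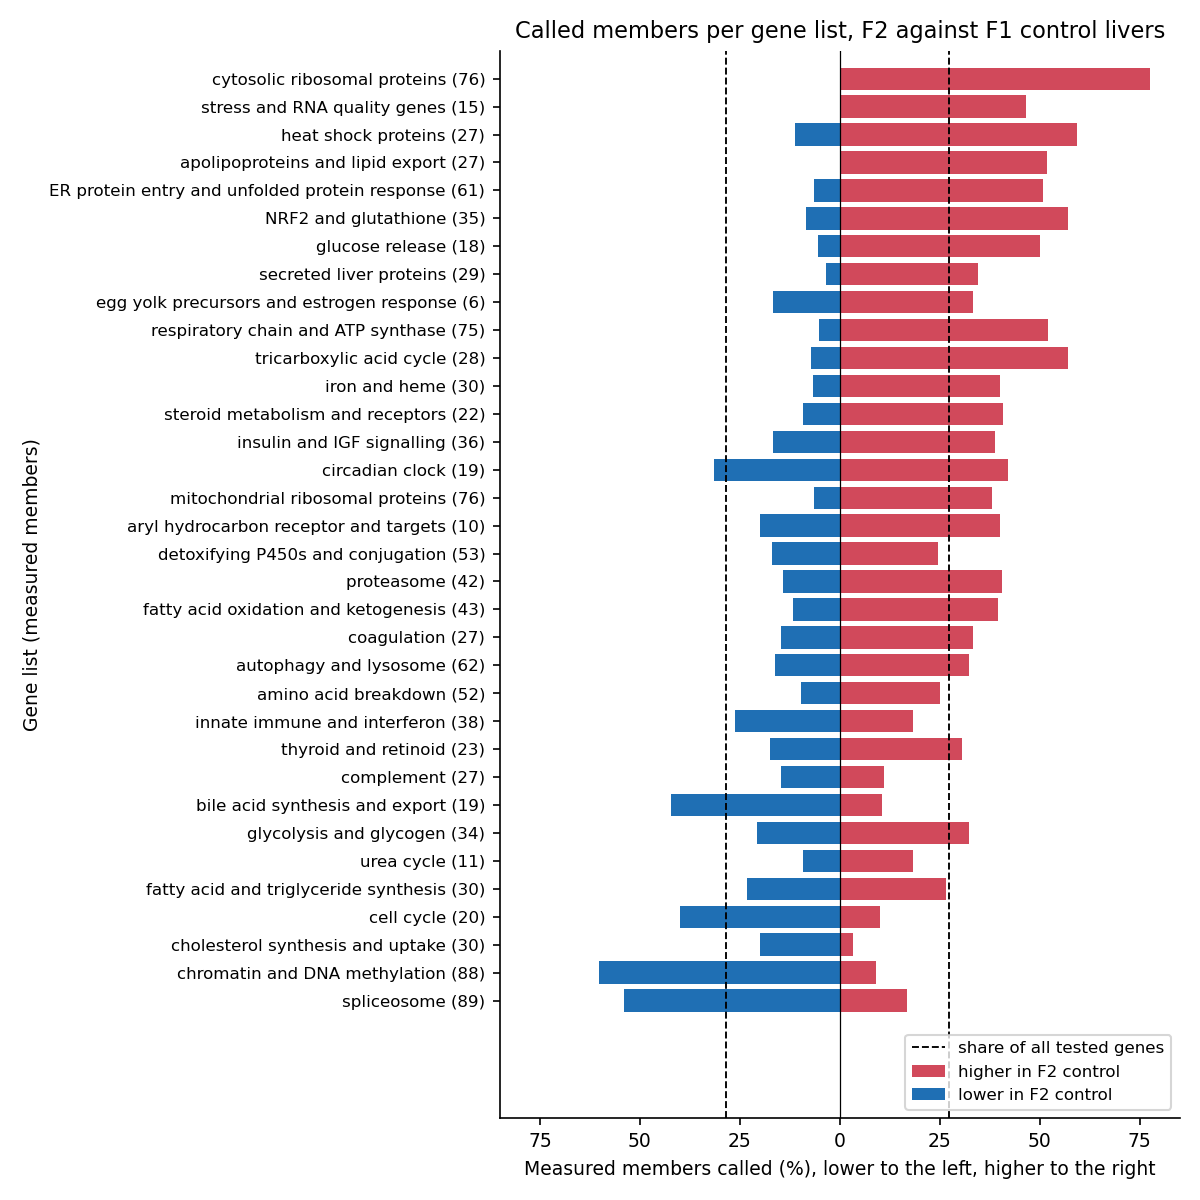
Share of measured members of 34 gene lists called higher (right) or lower (left) in F2 control livers, with the number of measured members in brackets and lists ordered by median log2 fold change. Dashed lines mark the shares over all tested genes, 27.4% higher and 28.5% lower; ribosomal proteins reach furthest to the right and chromatin and splicing genes furthest to the left.

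Genes that process RNA and organise chromatin had the highest shares of lower calls in F2 among the 34 lists other than cell type markers. Of 89 spliceosome genes, which remove introns, 48 fell and 15 rose (median -0.66). The kinase clk2, which phosphorylates splicing factors, had a large fall. F1 control libraries 1, 2, 3, 4 and 6 held 237, 258, 139.9, 276 and 239 scaled FPKM and F2 control libraries 1 to 5 held 28.4, 33.2, 37.8, 37.9 and 30.3. The lowest F1 library, F1 control 3, was over 3 times the highest F2 library (-2.71 ± 0.26, adjusted p = 5.09e-07). The splicing factor srsf4 fell from 123 ± 15.3 to 22.9 ± 5.95 (-2.4 ± 0.27), srrt, a partner of the RNA cap-binding complex, from 113 ± 26.9 to 22.7 ± 4.58 (-2.25 ± 0.24) and the U1-associated luc7l from 39.9 ± 6.12 to 10.7 ± 0.982 (-1.80 ± 0.21). In chromatin and DNA methylation 53 of 88 genes fell and 8 rose (median -0.60). The acetyl-histone reader brd3 led this list. In library order (F1 1, 2, 3, 4, 6 and F2 1 to 5) its scaled FPKM was 21.1, 14.6, 18.5, 26.0 and 20.4 in F1 and 1.90, 1.22, 1.42, 2.33 and 2.42 in F2. The generations differed by far more than the spread within either (-2.88 ± 0.29, adjusted p = 8.20e-07). The remodeller chd3 (-1.79 ± 0.18), the methyl-DNA-binding protein mbd1 (-1.59 ± 0.18) and the histone H3 methyltransferase ehmt1 (-1.53 ± 0.18) fell too. Counts for both lists stayed on this side with each scaling, at 52 and 55 lower without scaling and 49 and 53 lower with quantile normalization, and with the erythrocyte covariate, at 40 and 40.

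Of 20 cell division genes 8 fell and 2 rose. Those that fell included the replication helicase subunit mcm7 (-1.66 ± 0.13), cyclin D1, ccnd1 (-1.24 ± 0.24), the mitotic kinase cdk1 (-0.91 ± 0.21) and tyms, which makes thymidylate (-0.79 ± 0.19). Without F1 control 6 or F2 control 4, 5 of the list fell, as with the erythrocyte covariate, and with the replicate block 4 fell. In the list of clock genes 8 of 19 rose and 6 fell, against 5 and 6 without scaling and 5 and 5 with the covariate. The period gene per1, a repressor of the clock loop, fell. Scaled FPKM of per1 was 24.0, 31.1, 19.4, 24.3 and 30.2 in the F1 controls 1, 2, 3, 4 and 6, and 10.5, 5.53, 3.71, 7.72 and 5.02 in the F2 controls 1 to 5. The generations did not overlap (-1.89 ± 0.28, adjusted p = 2.27e-05). Its relative per3 fell from 83.2 ± 30.0 to 25 ± 6.15 (-1.64 ± 0.32), the activator arntl (BMAL1) from 7.08 ± 1.77 to 2.70 ± 0.428 (-1.11 ± 0.27) and the repressor cry1 from 20.4 ± 3.70 to 10.7 ± 1.88 (-0.87 ± 0.21). The nuclear receptors nr1d2 (1.09 ± 0.28) and nr1d1 (1.02 ± 0.36), which repress arntl, rose. The call of nr1d1 was lost without scaling (adjusted p = 0.0872), with the erythrocyte covariate (0.0675) and without F1 control 3 (0.0655) or 4 (0.0631) or F2 control 4 (0.0607), and that of arntl with the covariate (0.0752). The gene per2 was barely past the threshold (0.58 ± 0.24, adjusted p = 0.0447) and lost its call when any of 7 control libraries was left out, namely F1 1 to 4 or F2 2 to 4 (adjusted p = 0.061 to 0.14), and clock (0.34 ± 0.21, adjusted p = 0.181) and cry2 (0.21 ± 0.33, adjusted p = 0.609) did not pass. The hour of sampling is not given in the labels, and its part in these values was not tested.

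The aryl hydrocarbon receptor, which senses benzo[a]pyrene and induces cytochrome P450 1 enzymes, was also examined in the control line. The receptor gene ahr was higher in F2. Across the F1 controls 1, 2, 3, 4 and 6 it stood at 0.814, 1.09, 0.994, 0.816 and 1.14 scaled FPKM, and across the F2 controls 1 to 5 at 3.89, 5.59, 4.01, 5.08 and 4.37. No overlap was seen (1.5 ± 0.17, adjusted p = 1.86e-06). Its classical target cyp1a1, at 63.3 ± 12.6 scaled FPKM in F1 and 95.5 ± 25.2 in F2, did not pass the test (0.56 ± 0.33, adjusted p = 0.146). In the receptor's list 4 of 10 genes rose and 2 fell, or 3 and 3 without scaling, with cyp1d1 higher (1.17 ± 0.26) and the quinone reductase nqo1 lower (-0.82 ± 0.19). Of 35 genes of the NRF2 antioxidant system and glutathione, 20 rose and 3 fell (median 0.85), and 12 and 3 with the erythrocyte covariate. The regulator nfe2l2 (NRF2) (1.12 ± 0.16) and its inhibitor keap1 (1.84 ± 0.25) both rose, as did gclm, a subunit of the glutathione-making ligase (1.71 ± 0.25), and mitochondrial thioredoxin txn2 (1.08 ± 0.15). Among 53 detoxifying P450 and conjugation genes 13 rose and 9 fell, both under the background, a split that turned to 7 and 13 without scaling and was 13 and 3 with the erythrocyte covariate. The sulfotransferase sult6b1.2 rose from 6.01 ± 1.22 to 45.6 ± 21.9 (2.60 ± 0.44) and the flavin monooxygenase fmo1 fell from 25.6 ± 4.34 to 4.24 ± 0.971 (-2.35 ± 0.31).

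Iron and heme genes were higher in 12 and lower in 2 of 30. Ferroportin, slc40a1, the only known cellular iron exporter of vertebrates, was a clear case. Its level was 35.5, 42.3, 36.5, 36.5 and 23.5 scaled FPKM in F1 control libraries 1, 2, 3, 4 and 6 and 91.2, 117, 94.1, 62.0 and 140.2 in F2 control libraries 1 to 5. All F2 libraries were above all F1 libraries (1.48 ± 0.22, adjusted p = 2.72e-05). The heme-making enzyme uros (1.54 ± 0.28) and the iron importer slc11a2 (1.13 ± 0.21) rose. Retinoid and thyroid genes rose in 7 and fell in 4 of 23 (30.4% and 17.4%), or in 4 and 3 with the erythrocyte covariate. The retinal reductase dhrs3 rose from 2.85 ± 1.11 to 14.8 ± 1.77 (2.08 ± 0.25) and the retinol-binding rbp5 fell from 63.1 ± 14.9 to 10.4 ± 5.99 (-2.60 ± 0.43). In steroid metabolism and receptors 9 of 22 rose and 2 fell (5 and 0 with the covariate), among the former the glucocorticoid receptor nr3c1 (0.95 ± 0.18) and the mineralocorticoid receptor nr3c2 (0.72 ± 0.10). The estrogen receptor esr1, at 4.50 ± 1.12 scaled FPKM in F1 and 7.29 ± 2.81 in F2, did not pass (0.56 ± 0.31, adjusted p = 0.126). The yolk precursor vtga2 was marked as having too many fragments to estimate in 9 of the 10 control libraries and albumin, alb, in 4, so neither was tested. Among 6 measured yolk and estrogen genes 2 rose and 1 fell, including the lysosomal protease ctsd (1.73 ± 0.21), which was higher, and the endocytic receptor lrp1 (-1.2 ± 0.32), which was lower except with the erythrocyte covariate (adjusted p = 0.143).

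Of 52 amino acid breakdown genes, 13 rose and 5 fell (25% and 9.62%), which became 10 and 8 without scaling and 11 and 2 with the erythrocyte covariate. Histidine ammonia-lyase, hal.2, fell from 960.4 ± 324 to 172 ± 70.1 (-2.49 ± 0.42) and cystathionine beta-synthase, cbs, from 308 ± 91.1 to 105 ± 27.7 (-1.54 ± 0.25), while the branched-chain dehydrogenase subunit bckdhb (1.62 ± 0.23) and gcsh of the glycine cleavage system (1.47 ± 0.24) rose. In the urea cycle and its neighbours 2 of 11 rose, arg1 (1.79 ± 0.61) and glutamine synthetase glul (1.06 ± 0.43), and otc fell (-1.10 ± 0.34), each with overlapping generations. The call of arg1 was lost without F1 control 1 or F2 control 1 or 4 (adjusted p = 0.0511 to 0.0615), that of glul without F1 control 2 or 6 or F2 control 1, 3 or 4 (0.0595 to 0.122), and that of otc with the erythrocyte covariate (0.308). Lysosome and autophagy genes rose in 20 and fell in 10 of 62, and in 12 and 4 with the covariate. The ganglioside activator gm2a was low in F1. F1 control libraries 1, 2, 3, 4 and 6 held 0.414, 1.4, 0.947, 1.2 and 1.92 scaled FPKM and F2 control libraries 1 to 5 held 10.7, 13.3, 9.77, 9.84 and 15.6. The lowest F2 library was over 5 times the highest F1 library (2.58 ± 0.26, adjusted p = 8.20e-07). The autophagy genes map1lc3b (1.98 ± 0.27) and atg12 (1.17 ± 0.16) rose. Innate immune genes rose in 7 and fell in 10 of 38 (2 and 13 without scaling, 4 and 6 with the covariate), with the interleukin-6 receptor il6r (-2.19 ± 0.20), nfkb1 (-0.94 ± 0.14) and mavs, an antiviral adaptor (-1.23 ± 0.20), lower and the peptide-loading protein tapbp higher (1.52 ± 0.22).

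Cell type marker lists varied in how often their members were called, against 27.4% higher and 28.5% lower over all tested genes. In bulk tissue fewer cells of a type and less RNA per cell cannot be told apart. Erythrocyte genes rose in 11 (52.4%) and fell in 0 of 21 measured members. Their summed level ran from 18144 to 102390 scaled FPKM in F1 and from 58498 to 167570 in F2. Most of that sum was hba1, with means of 42880 in F1 and 64170 in F2, and hbg1, with means of 11850 and 33790. The Rh-associated gene rhag (2.67 ± 0.47), carbonic anhydrase ca2 (3.2 ± 0.57), the transcription factor nfe2 (2.50 ± 0.42) and hemgn (1.81 ± 0.43) were higher. The other 10 measured members that were not called did not move together. In F1 and F2, mean scaled FPKM was 57.7 and 55.6 for ank1, 11.6 and 12.4 for gata1 and 14.2 and 15.2 for epb42. The globin hba-l5 had a lower mean in F2, at 111.3 and 60.4. The alpha-globin gene hba2 overlapped between generations (1.68 ± 0.74, adjusted p = 0.0611), and hba1, not tested because of mixture libraries with too many fragments, lay at 11096 to 75038 in F1 and 33492 to 97109 in F2. With the erythrocyte level as a covariate 3760 genes were called, 1858 higher and 1902 lower. Of these, 3581 were also called in the same direction in the fit without it.

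Hepatocyte genes rose in 4 and fell in 0 of 14, summed at 3667 to 7658 in F1 and 7202 to 11686 in F2. Their share of higher calls, 28.6%, was near the 27.4% over all tested genes. Lymphocyte markers fell in 5 of 7 (71.4%) and rose in 0, summed at 44.9 to 79.96 against 28.4 to 47.1. The T-cell gene cd3e (-1.27 ± 0.29) and the B-cell gene blnk (-1.14 ± 0.18) were among those that fell. Other T-cell and B-cell genes of the list had a higher mean in F2. In F1 and F2, cd3g was at 2.61 and 3.88 scaled FPKM, cd247 at 0.237 and 0.876, cd79a at 0.74 and 1.37 and cd79b at 0.0482 and 0.215. Endothelial markers fell in 3 and rose in 2 of 7 (42.9% and 28.6%). Only 1 rose without any single one of F1 control 2, 3 or 6 or F2 control 1, 2, 3 or 5. Without scaling 0 rose and 4 fell, and with the erythrocyte covariate 0 rose and 1 fell. Their sum ran from 86.5 to 125.5 in F1 and from 36.5 to 59.7 in F2, and most of the gap was that of stab1: without it the sums overlapped, at 38.2 to 56.6 and 27.1 to 44.9. The scavenger receptor stab1 of liver sinusoids fell from 55.0 ± 11.1 to 11.2 ± 2.75 (-2.20 ± 0.24), while the vessel cadherin cdh5 rose (0.51 ± 0.14), though not without scaling (adjusted p = 0.0827) or with the erythrocyte covariate (0.0774). Macrophage markers fell in 3 of 9 (33.3%), vsig4 (-1.18 ± 0.22), mrc1 (-0.93 ± 0.21) and cybb. They rose in 1 (11.1%), spi1, at 0.805 scaled FPKM in F1 and 1.75 in F2. Their sums ran from 148.6 to 260.6 and from 81.0 to 233.1, and without F2 control 1, 5 fell. The call of spi1 was lost without scaling (adjusted p = 0.0663) and with the erythrocyte covariate (0.121). That of cybb was lost with the covariate (0.0551). Stellate and fibroblast markers rose in 2 and fell in 5 of 11 (18.2% and 45.45%). Without scaling 7 fell, and with the erythrocyte covariate 3 fell. Their sums overlapped, at 108.1 to 149.6 in F1 and 71.4 to 134.3 in F2. Decorin, dcn (1.92 ± 0.26), and tagln (1.74 ± 0.24) were up and col5a1 was down (-0.77 ± 0.16). None of the 7 measured granulocyte markers passed.

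The pancreas and gut list fell in 3 of 4 measured members, amy2a, cel (-1.26 ± 0.24) and alpi.2 (-1.37 ± 0.28). Its sum ran from 172.9 to 437.6 in F1 and 37.0 to 79.4 in F2. Most of the F1 sum was amy2a, at 128.9 to 414.6 in F1 and 15.9 to 38.8 in F2, a leading gene chosen for not overlapping. The gap in the sum is therefore no sign of a fall across the list. The next highest member, alpi.1, was not called, with means of 19.4 and 21.5. Of the 31 members in the files 8 were listed at 0 in all 10 control libraries, among them the digestive enzyme genes prss2, ctrb1, pnlip and cela1.1. Others were low with a higher mean in F2, as prss3 at 0.118 and 0.725, cela3a at 0.0649 and 0.436 and prss1 at 0.156 and 0.364 scaled FPKM in F1 and F2. Biliary markers rose in 1 and fell in 1 of 7 (14.3% each), both under the shares over all tested genes. Their sums ran from 294.3 to 626.6 in F1 and from 332.9 to 736.4 in F2, and 6 tff3 copies were at 0 throughout. Egg and ovary markers had 3 measured members, of which 1 fell, with sums of 6.77 to 47.3 and 2.04 to 23.4. A single library set the top of each range, F1 control 6 and F2 control 5. The remaining libraries lay at 6.77 to 8.45 in F1 and 2.04 to 3.36 in F2. None fell without F1 control 6 or F2 control 1, 3 or 4, and 2 fell without F1 control 2 or 4 or F2 control 5. Fat and muscle markers rose in 1 and fell in 2 of 9 (11.1% and 22.2%), both under the shares over all tested genes, with sums of 46.2 to 108.2 and 71.9 to 177.7. Only 1 fell without any single one of F1 control 1 to 4 or F2 control 2, 3 or 5, and 4 fell without scaling. Early-response and RNA-quality genes rose in 7 and fell in 0 of 15 (median 1.25), among them txnip, a glucose-responsive inhibitor of thioredoxin (1.95 ± 0.42), atf3 (1.2 ± 0.28) and btg2 (2.45 ± 0.63) beside zfp36. With the erythrocyte covariate the calls of hemgn (adjusted p = 0.0527) and atf3 (0.0515) were lost. The covariate is the mean of the measured erythrocyte markers, hemgn among them, so nothing is read from the loss of hemgn. The markers behind the covariate themselves rose with generation, with a median log2 fold change of 1.32. Calls lost with the covariate, here and above, therefore cannot tell blood content apart from generation. The part of cell makeup, blood content and handling in these differences was not tested.

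The genomic span of a gene, from its start to its end, differed between the directions. Genes higher in F2 had a median span of 14514.5 bp (2782 genes) and genes lower in F2 23511 bp (2878), against 18541 bp over 10119 genes with a position. When the genes were split into 10 equal groups by span, 33.8% were higher and 19.1% lower in the group with the shortest span, and 17.6% and 38.3% in the group with the longest. The median log2 fold change went from 0.26 in the shortest group to -0.24 in the longest. In the mixture line the same medians were 0.01 and -0.09. Removing a trend on estimated transcript length from each library left 5897 genes called, 2949 higher and 2948 lower. That length is not the genomic span, and the shares by span were not recomputed after its removal.

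**Figure D4:**
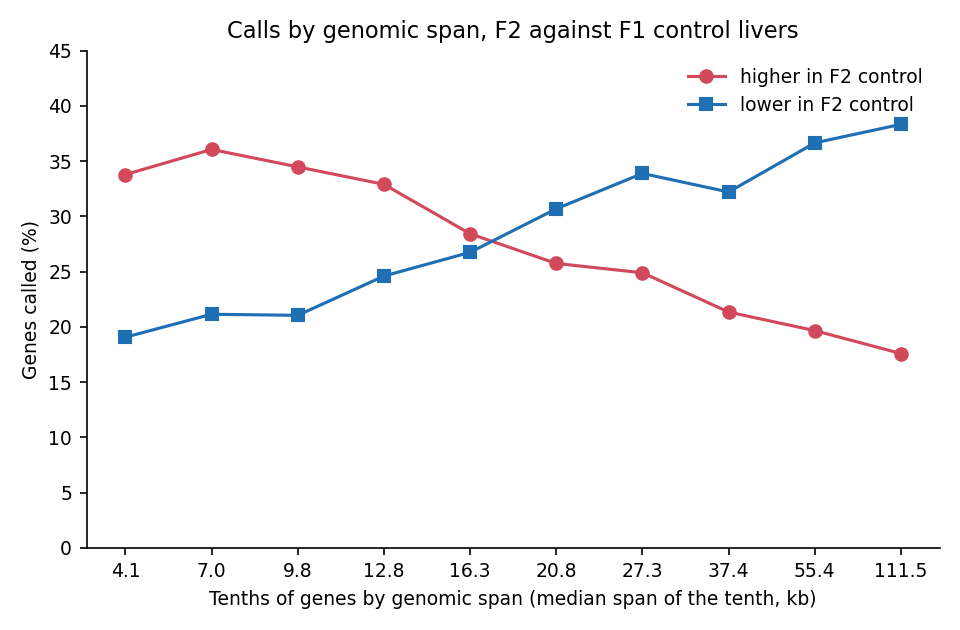
Share of genes called higher and lower in F2 control livers (vertical axis, %) in 10 equal groups of tested genes by genomic span (horizontal axis, median span in kb). The share called higher goes from 33.8% in the shortest group to 17.6% in the longest, and the share called lower from 19.1% to 38.3%.

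The mixture line offered the same generation step in other frogs, with no library shared with the controls. The fit called 1450 of 10228 genes there (14.2%), of which 620 had risen (6.06%) and 830 had fallen (8.11%) in F2. In both lines 966 genes passed in the same direction, 445 higher and 521 lower, which is 16.9% of the genes called in the control line and 66.6% of those called in the mixture line. Another 42 were called in opposite directions. Over all tested genes 27.4% were called higher and 28.5% lower in the control line. Both contrasts came from 1 fit with a shared estimate of the spread of each gene. The calls of the 2 lines are therefore not independent. Across genes the 2 sets of log2 fold changes had a Pearson correlation of 0.56, and their median sizes were 0.61 in the control line and 0.31 in the mixture line. Genes are not independent replicates, so no p is given.

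A test of the difference between the lines' generation steps called 2052 genes (20.1%), 1078 higher (10.5%) and 974 lower (9.52%) in the control line. Of the 23 leading genes, 22 had the same sign in the mixture line, 6 passed there, and 14 differed between lines. These genes were chosen for their change in the control line, which enters the difference as well, so their count and p-values describe them and nothing is read from them. Among these 14 tmem97 had the largest difference, 3.53 ± 0.51, adjusted p = 0.000336, since it was at 5.56 and 8.26 scaled FPKM in F1 and F2 mixture libraries. The genes inhbc.2 (3.21 ± 0.48, adjusted p = 0.00041), sdc4 (3.15 ± 0.61, adjusted p = 0.00256) and itm2a (2.74 ± 0.58, adjusted p = 0.00391) also rose more in the control line. The difference was negative for snrnp70 (-3.00 ± 0.53, adjusted p = 0.00134) and gckr (-2.86 ± 0.65, adjusted p = 0.00593), which fell in the control line only. In F1 and F2 mixture libraries snrnp70 was at 440 and 483 and gckr at 163 and 168 scaled FPKM, and neither was called. For crem (0.42 ± 0.86, adjusted p = 0.762) and g0s2 (-0.54 ± 0.79, adjusted p = 0.655) the difference did not pass, and crem was at 1.15 and 39.1 and g0s2 at 718 and 75.3 in the mixture generations. The number of genes in this test depends on the fit: 380 passed with replicate numbers as a block and 3759 with library quality weights. No other library shares the numbers of F1 control 6 or F1 mixture 8, 9 and 13. The block therefore takes these libraries out of the comparison, and the F1 mixture group then rests on libraries 1 and 4.

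Gene lists varied in how often the lines differed. Over all tested genes 6.06% rose and 8.11% fell in the mixture line. The difference between lines was called for 20.1%, with 10.5% higher and 9.52% lower in the control line. Of 89 spliceosome genes 3 fell and 6 rose in the mixture line, and the difference was called lower in the control line for 35. For 88 chromatin genes the counts were 3, 1 and 37. Ribosomal protein genes rose in 27 and fell in 0 of 76 in the mixture line, with a median of 1.12, and the difference between lines was called for 1 of them. Early-response genes rose in 4 and fell in 0 of 15, with a median of 1.52, and none differed between lines. Respiratory chain genes rose in 2 of 75 in the mixture line and differed between lines in 14, 13 of them higher in the control line. In total they differed about as often as all tested genes.

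**Figure D5:**
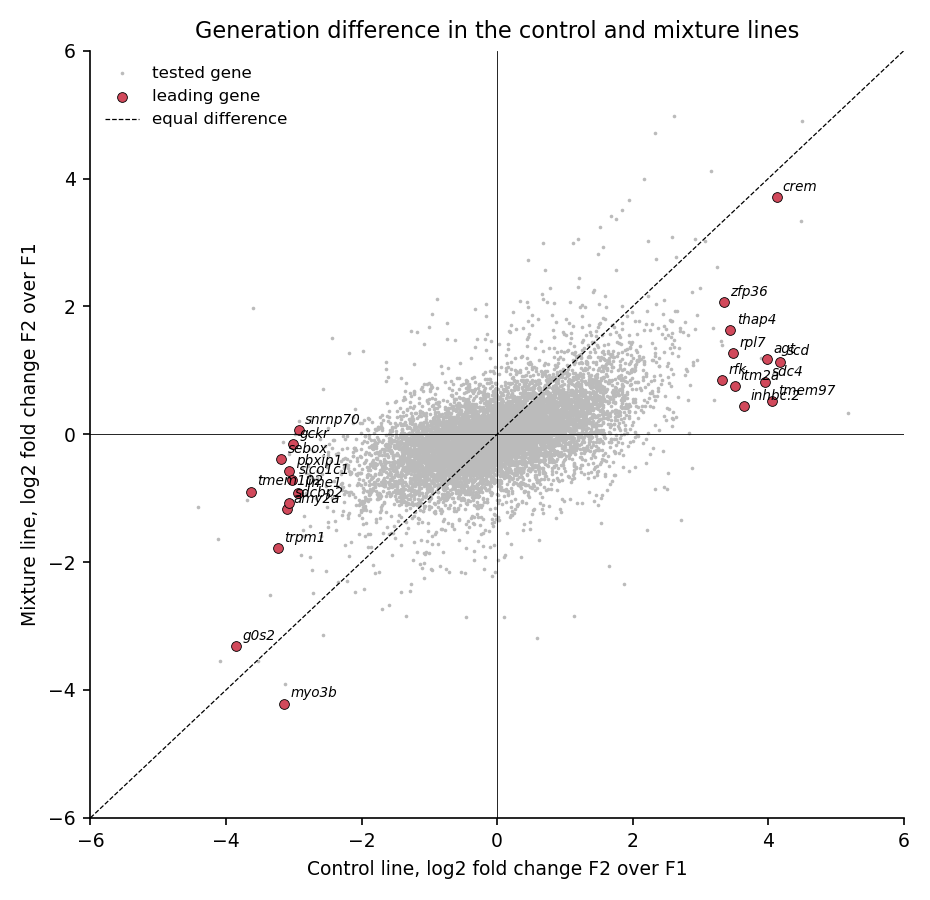
Log2 fold change of F2 over F1 in the control line (horizontal) against that in the mixture line (vertical) for 10228 tested genes, with the 23 leading genes of the control line in red and a dashed line of equal difference. Most leading genes lie nearer to 0 on the vertical axis than the dashed line, while crem, g0s2 and myo3b lie close to it or beyond.

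Some called genes were listed at 0 in every library of a generation, 2 in F1 and 12 in F2, and no fold is given for these 14. The highest levels opposite a 0 were those of an unnamed gene, LOC105945712, at 16.3 to 53.8 scaled FPKM in F2, rec114, a meiotic recombination gene, at 15.4 to 23.8 in F1, and hps3, of lysosome-related organelle biogenesis, at 0 in 2 and 19.7 to 38.7 in 3 F1 libraries. The authors' deposited table gives mean FPKM above 0 in F2 controls for both rec114, 1.37 against 19.8 in F1, and hps3, 8.59 against 45.04. A listed 0 in the library tables is therefore not a measured absence.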

How the data were processed

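Liver RNA was prepared with the TruSeq Stranded mRNA kit and sequenced as 75 bp reads, per the labels' protocols. Per the submitters' processing notes, the authors used Trimmomatic 0.32.1, HISAT2, Cufflinks 0.0.7 and Cuffdiff 0.0.7. The deposited Cufflinks tables, 1 per library, give FPKM per gene with its limits and a status, per the file headers. The series' design text says that reads of the controls were part of an earlier series. No source used here names the genome build. Of 20372 named genes, 20164 (99.0%) had the start and end of the UCB_Xtro_10.0 reference gene table, and coordinates are those of the deposited tables counted from 1. The 70 of 20442 lines without a gene name were dropped. They made up 0.00371% to 0.00856% of each library's FPKM sum in the F1 controls and 0.000624% to 0.00179% in the F2 controls. Read counts were not used here. The deposited limits, taken as 2 Poisson SD on each side, give the fragment numbers stated, which cover sound genes only. At an FPKM of 5 to 20 their median half-width was 9.08% to 10.97% of the value, and this covers counting error only.

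FPKM values with a status other than OK were set to missing (23 genes in at least 1 control library). Values were divided by a median-of-ratios factor over 6971 genes, which was 1.01 to 1.26 in the F1 and 0.792 to 1.05 in the F2 controls. Scaled values were taken as log2 after adding 1, so fold changes of low genes are understated. Genes needed a mean FPKM of 1 or more over 20 libraries and 3 sound values per group, which left 10228. limma 3.58.1 in R 4.3.3 fitted 4 group means over all 20 libraries with a variance trend, two-sided, with Benjamini-Hochberg adjustment at 0.05. The procedure was also run on simulated data with noise drawn independently for each gene and library. Real libraries shift over many genes together, so nothing about the calls here is read from that run. The authors' deposited Cuffdiff tables were used only for mean FPKM of genes listed at 0.

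The comparison, the 45 gene lists (11 of them cell type markers) and the rules were chosen with earlier results of these data known. Genes named are first the 12 largest changes in each direction among called genes without uncharacterised identifiers. Those genes were sound in all 10 control libraries, did not overlap between generations and were not at 0 throughout a generation. They also reached a mean of 5 scaled FPKM in the higher group. Up to 4 called members per list with the smallest p and the 3 highest called genes at 0 in a whole group were added. A set of growth, clock, iron, estrogen and globin genes was named in any case. So were apln, mttp.1, cyp1a1, ahr, snrnp70 and alb. Alternatives were another pseudocount (0.1), level filters, no scaling, quantile normalization, control libraries alone, library quality weights (arrayWeights), the replicate number as a block, an erythrocyte covariate, a length trend and leaving out each control library. vtgb1 was not analysed here, and 4 genes that the rule would name, 1 of them a leading gene, are not reported here.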

Additional observations from a re-analysis of the deposited data

Results flagged for a closer look

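Sets of 5 libraries were checked by Dixon's criterion for most genes named in the text. In 24 of 321 sets 1 library stood apart from the other 4 on the log2 scale, which chance meets in about 1 of 20 groups. F1 control 3 was that library in 9. It was the only F1 library above 0 for thap4 (7.18 scaled FPKM). It was the lowest for tmem102 (26.6), snrnp70 (385.4), clk2 (139.9) and nr1d2 (2.53), and the highest for gcsh (83.0), mdh2 (41.2), syvn1 (9.60) and dcn (3.56), always on the side nearer to F2 except for nr1d2. F2 control 1 stood apart in 4, low for acacb (1.60), lrp1 (8.40) and ehmt1 (3.14) and high for cox7a2l (48.3). F2 control 3 stood apart in 4, at 3.74 for tmem102, 11.7 for dhrs3, 8.91 for irs2 and 12.2 for esr1. F1 control 2 was high for lrp1 (56.8), clu (15.4) and il6r (19.6). Single cases were ctsd in F1 control 4 (11.4), apob in F1 control 6 (59.4), eif2s1 in F2 control 4 (23.9) and hemgn in F2 control 2 (117.3).

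In 14 of the 23 leading genes the generation difference of the control line differed from that of the mixture line by limma's test of the difference, which these genes, chosen for their control-line change, were likely to pass. The excess in the control line, on the log2 scale, was 3.53 for tmem97, 3.21 for inhbc.2, 3.15 for sdc4, 2.80 for agt, 2.74 for itm2a, 2.48 for rfk and 2.21 for rpl7. It was -3.00 for snrnp70, -2.86 for gckr, -2.74 for tmem102, -2.49 for pbxip1, -2.30 for slco1c1, -2.02 for lime1 and -1.46 for trpm1. Control and mixture libraries may have been made at different times, which cannot be told apart from the line.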

How the results depend on the processing

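The F2 against F1 control comparison gave 5222 to 5845 called genes when each control library was left out in turn, 2549 to 2855 of them higher and 2652 to 2990 lower, and 2563 to 3005 over 2-fold. With a mean FPKM of 5 or more, which left 5223 genes to test, 3146 were called (1469 higher, 1677 lower). With the erythrocyte covariate 3760 were called (1858 higher, 1902 lower; 1716 over 2-fold), and the cause was not tested. The difference between the lines called 1561 to 2482 genes with 1 control library left out (809 to 1266 higher, 752 to 1216 lower), 1358 at a mean FPKM of 5 or more (582 higher), 3759 with arrayWeights (1977 higher, 1782 lower) and 1266 with the erythrocyte covariate (681 higher, 585 lower). Without scaling 607 were lower. The control libraries alone give no value for it. No pairing by replicate number was seen: same-numbered control libraries correlated at -0.0008 to 0.0801 in their deviations from group means. Control libraries of different generations and numbers correlated at -0.27 to 0.319. This check cannot show that no pairing exists. With the number as a replicate block 5143 genes were called between control generations, 4948 of them also called in the same direction without it. For the difference between lines 380 passed (219 higher, 161 lower). The block drops F1 control 6 and F1 mixture 8, 9 and 13, whose numbers no other library shares, so its counts rest on fewer libraries.

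Of 192 named genes tested, 186 were called, and 158 kept their call under all 20 alternatives that tested them. The erythrocyte covariate ended 24 calls, no scaling 8, the block 6 and each single library left out 2 to 6. cry2, not called, turned from 0.21 to -0.03 without scaling, and hba2, not called, to -0.11 with the erythrocyte covariate. That covariate is a mean that includes hba2, so nothing is read from the turn of hba2. A planned correction on annotated transcript length was not run, since the tables used here give none. The trend on length estimated from the deposited limits was chosen after seeing the data and called 5897 genes. Values of 0 and genes with too many fragments limit what can be said of them.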

Other observations

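Further gene families were picked by gene symbol after the results were seen and are described without a test. Their members were called at various rates, against 27.4% higher and 28.5% lower over all tested genes. All 8 measured subunits of the chaperonin that folds actin and tubulin were higher in F2 (median log2 fold change 1.26). Mitochondrial import translocases rose in 12 and fell in 2 of 21 (median 0.68), and Rab GTPases, which steer vesicles, rose in 28 and fell in 6 of 52 (median 0.58). Subunits of the V-type ATPase, the proton pump of lysosomes, rose in 8 and fell in 1 of 18. Translation initiation and elongation factors rose in 30 and fell in 12 of 61 (median 0.38). The medians of these 5 families kept their sign without scaling and with quantile normalization.

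RNA helicases of the ddx and dhx families fell in 25 and rose in 6 of 41 (median -0.66), kinesins, motors on microtubules, fell in 6 and rose in 1 of 13, and nucleoporins fell in 8 and rose in 3 of 19. The median of the nucleoporins was -0.05 and turned to 0.02 with quantile normalization. Solute carriers rose in 59 and fell in 26 of 184. Zinc finger proteins rose in 22 and fell in 31 of 93 (23.7% and 33.3%), near the shares over all tested genes. Mediator subunits rose in 9 and fell in 4 of 26, and RNA polymerase II subunits in 3 and 2 of 14. Ubiquitin-specific proteases rose in 6 and fell in 10 of 32, and coat proteins of COPI and COPII vesicles in 9 and 5 of 21. In the mixture line 1 of the 41 helicases fell and 2 rose, and none of the 8 chaperonin subunits was called.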
